A study of Mus musculus with 24 samples.

Results

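Cytosolic ribosomal protein genes were followed in organoids from mouse small intestine (SI) and colon (COL) in which a BRAF mutation, a p53 mutation or both could be switched on. The genes were taken by name: every protein-coding gene with a symbol of Rpl or Rps followed by a number, plus Rplp0, Rplp1, Rplp2 and Rpsa, without the Rps6k kinases and without symbols marked -ps as pseudogenes. This gave 86 of the 45706 gene identifiers in each count table, 52 named for the large subunit and 34 for the small subunit. Of these, 77 encode core proteins of the ribosome and 9 carry a name derived from a core gene, namely Rpl3l, Rpl7l1, Rpl10l, Rpl22l1, Rpl36al, Rpl39l, Rps27l, Rps27rt and Rps19bp1, the last encoding a protein that binds Rps19. Enough reads for a test were found for 83 of the 86 genes, whereas Rpl10l had no count in any library and Rpl39l and Rpl3l were close to 0 in all of them. Rack1 and Fau encode ribosomal proteins under other names and are reported beside the 86.

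Ribosomal proteins fold onto ribosomal RNA (rRNA) in the nucleolus to build the large and the small subunit, and their mRNAs are among the most abundant in dividing cells. Many of these mRNAs begin with a 5′ terminal oligopyrimidine (TOP) tract, an unbroken run of C and U at the first bases, through which the kinase complex mTORC1 and the RNA-binding protein Larp1 regulate their translation and stability. Myc and RNA polymerase I control ribosome production in parallel, and in the intestine that production is known as a property of the dividing cells of the crypt. Several ribosomal proteins, Rpl5 and Rpl11 among them, bind Mdm2, the ubiquitin ligase of p53, when ribosome assembly is disturbed.

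The cultures came from C57BL/6N mice of 3 genotypes: BRAF (BraffloxV600E/+;Villin::CreERT2), p53 (Trp53LSL-R172H/+;Villin::CreERT2) and BRAFp53 (BraffloxV600E/+;Trp53LSL-R172H/+;Villin::CreERT2). In all of them, controls included, the Villin promoter drives a tamoxifen-dependent Cre recombinase in intestinal epithelial cells. Organoids were exposed for 24 h to 4-hydroxytamoxifen (on) or to ethanol (off), at 0.5 µM for SI with RNA taken on day 8 and at 3.5 µM for COL with RNA taken on day 3, so that tissue, dose and day cannot be told apart. Each genotype and tissue was represented by 1 culture with 2 on and 2 off libraries, giving 12 groups and 24 libraries. The study's methods name 3 donor mice, 1 per genotype. The spread between libraries is therefore that of parallel wells of 1 culture, p-values do not cover differences between animals, and genotype and donor cannot be told apart.

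Libraries held 44342326 to 78162098 counts assigned to genes, and counts per 1e6 (CPM) below are scaled by the TMM factors of each tissue's table unless another scale is named, so that levels of SI and COL set side by side come from separate scalings. The summed level of 6 colon marker genes was 2.59 to 11.3 CPM in SI against 1506 to 20160 CPM in COL, most of it Car1, at 1473 to 20036 CPM in COL and at most 0.24 CPM in SI. Of the other colon markers, Hoxb13, Hoxd13 and Hoxd10 were at 0 in all SI libraries, but also at 0 in both COL BRAF on libraries and in some other COL libraries, where they did not exceed 1.06 CPM. The summed level of 6 small intestine markers overlapped between the tissues, at 1674 to 8832 CPM in SI and 690 to 2403 CPM in COL. Among them Gata4, Apoa4, Fabp2 and, at under 1 CPM, Mptx2 were higher in every SI library than in any COL library, whereas the Paneth cell gene Lyz1 was at 36.4 to 139 CPM in SI and at 255 to 1904 CPM in COL, and Defa24 overlapped, at 55.3 to 186 CPM in SI and 50.7 to 389 CPM in COL. The summed level of 11 stromal and immune markers was 2.24 to 21.2 CPM in all libraries. The library labelled SI BRAF on replicate 1 stood apart in Xist, the RNA of the inactive X chromosome, at 13.6 CPM (per total counts, without TMM factors, as are the other Xist values), while the other libraries of that culture were at 0.18 to 0.478 CPM, the SI p53 and SI BRAFp53 libraries at 106 to 152 CPM and the COL libraries at 0.0435 CPM or less. Whether that library holds RNA of another culture was not tested, and many results of the SI BRAF organoids are also given without it. Xist was thus also unlike between the SI and the COL cultures of the p53 and BRAFp53 genotypes. Whether both tissues of a genotype came from the same animal was not tested. Ribosomal protein genes have many near-identical copies, and 55 of the 86 share over 50% of their 50-base stretches with another gene, so reads could be divided between copies. Rpl24 was recorded at 0.178 to 0.83 CPM, Rps27rt at 1.51 to 7.71 CPM and Rpl23a at 25.1 to 46.7 CPM, and the level of these genes is uncertain.

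The first bases around the annotated transcription start are shown for genes that the results turn on: the copies Rps27l, Rpl36al and Rpl7l1, the parents Rps27 and Rpl36a, and Rpl41, Rpl27a and Rpl13 as core genes with a small or a large change. Each line gives 30 bases before the start and 20 bases from it, 5′ to 3′ on the gene's strand, from RefSeq in build GRCm38.p6. Capitals mark the run of pyrimidines that covers the annotated start or a base beside it, and a line without capitals has none.
Rps27, chr3:90213629-90213678, minus strand: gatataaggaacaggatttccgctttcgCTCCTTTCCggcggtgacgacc
Rps27l, chr9:66946056-66946105, plus strand: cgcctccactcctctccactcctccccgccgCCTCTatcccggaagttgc
Rpl36a, chrX:134585624-134585673, plus strand: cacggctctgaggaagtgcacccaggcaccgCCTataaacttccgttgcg
Rpl36al, chr12:69184048-69184097, minus strand: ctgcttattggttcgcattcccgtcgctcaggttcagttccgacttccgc
Rpl7l1, chr17:46782637-46782686, minus strand: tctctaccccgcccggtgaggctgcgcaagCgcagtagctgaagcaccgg
Rpl41, chr10:128549149-128549198, minus strand: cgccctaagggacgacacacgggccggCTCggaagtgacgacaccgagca
Rpl27a, chr7:109519165-109519214, plus strand: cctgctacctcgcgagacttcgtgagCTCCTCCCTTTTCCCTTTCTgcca
Rpl13, chr8:123102320-123102369, plus strand: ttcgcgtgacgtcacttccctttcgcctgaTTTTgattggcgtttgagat

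A promoter window of 250 bases before and 50 bases from the start was found for 66 of the 86 genes. A pyrimidine run of at least 5 bases covered the start or a base beside it in 26 of the 66 (39.4%), against 18.6% of the 16337 protein-coding genes with a window. The run was 9 bases in Rps27 and 5 in its copy Rps27l, and 3 in Rpl36a and 0 in its copy Rpl36al. It was 1 in Rpl7l1, whose parent Rpl7 had no window. Among the called genes with the largest falls in SI BRAF it was 20 in Rpl27a, 9 in Rps15a, 4 in Rps2 and Rpl13, 1 in Rpl22 and 0 in Rps19. The ETS-type motif CCGGAAG, on either strand, lay in 37.9% of the members' windows and in 12.5% of all windows, and it was as frequent in those of mitochondrial ribosomal proteins (36.2%), small subunit assembly factors (36.7%) and large subunit assembly factors (41.4%). The GC box GGGCGG was in 60.6% against 48%, the YY1-type motif AAGATGGC in 7.58% against 3.31%, the E-box CACGTG in 7.58% against 8.04% and TATAAA in 9.09% against 12.8%. These are matches of letters in fixed windows, and annotated starts can lie some bases from the starts used in the organoids.

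The 86 genes took 5.33% ± 0.547 (SD, n = 2) of all counts in SI BRAF organoids after induction and 9.41% ± 0.39 (n = 2) in their off controls. The single SI BRAF libraries were at 5.71% and 4.94% on and at 9.69% and 9.14% off. In SI BRAFp53 the share was 6.64% ± 0.182 on and 8.17% ± 0.258 off, and in SI p53 it was 8.14% ± 0.0274 on and 8.31% ± 0.0185 off (n = 2 each). The COL shares were 8.94% ± 0.337 on and 10.4% ± 0.202 off for BRAF, 8.45% ± 0.353 on and 9.07% ± 0.016 off for BRAFp53, and 6.92% ± 1.19 on and 6.89% ± 0.0157 off for p53 (n = 2 each). On and off shares did not overlap in SI p53 or in any culture in which the BRAF mutation was switched on, and they overlapped in COL p53, whose on libraries were at 6.08% and 7.76%. Large subunit genes took 1.39 to 1.5 times the counts of small subunit genes in every library, so the balance between the subunits moved little while the total did. Mitochondrially encoded genes took 3.58% and 3.94% of counts in the SI BRAF on libraries and 6.46% and 7.39% off, 3.64% and 3.73% on and 4.37% and 5.92% off in SI BRAFp53, and 2.86% and 2.58% on and 6.51% and 8.84% off in COL BRAFp53. In COL BRAF they overlapped, at 6.74% and 8.36% on and 5.54% and 8.14% off, and their part in the shares of ribosomal protein genes was not tested. In bulk RNA, fewer cells of a type and less RNA per cell cannot be told apart.

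**Figure D1:**
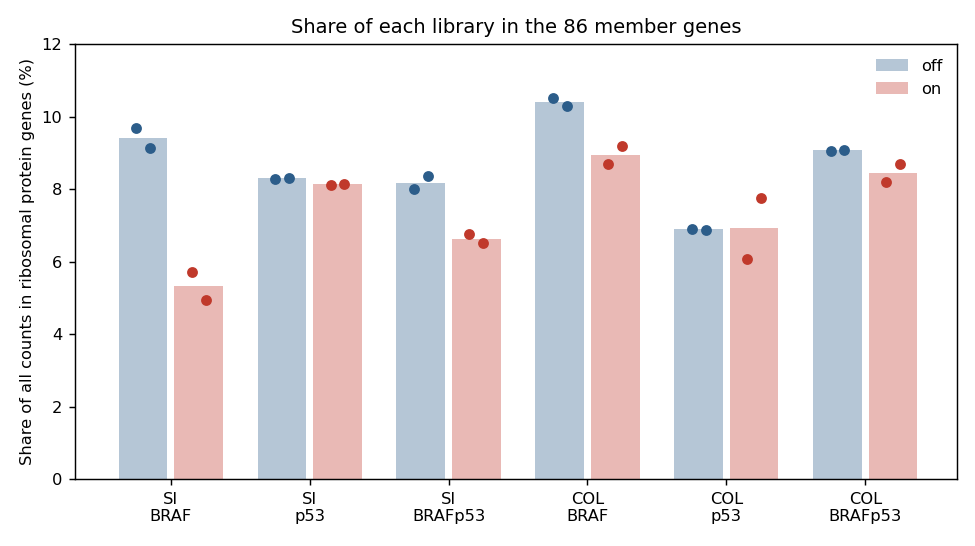
Share of all counts in each library taken by the 86 cytosolic ribosomal protein genes (percent, y axis) by tissue, genotype and state (x axis), with 1 point per library and a bar from 0 to the mean of each pair. The SI BRAF on libraries are lowest, at 5.71% and 4.94%, against 9.69% and 9.14% in their off controls.

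Most ribosomal protein genes fell when BRAF V600E was switched on in SI organoids. Of the 83 genes tested, 78 were lower and 0 higher (edgeR quasi-likelihood test, Benjamini-Hochberg adjusted p under 0.05, the threshold for every call here), while 14.2% of the 16856 genes tested in SI were called lower and 31.7% were called in either direction. The median log2 fold change of the members was −0.56, against −0.06 for all genes tested. Core genes of the large subunit were lower in 44 of 46 cases (median −0.56) and those of the small subunit in 31 of 31 (median −0.59). Without the library with Xist counts, 78 members were called and the median was −0.66. In this and every later result without that library, SI BRAF on has 1 library, which is assumed to vary like the other groups.

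Among called members the largest falls were in Rps2, Rpl13, Rps15a, Rps19, Rpl27a and Rpl22. Rps2, a protein of the small subunit near the mRNA entry channel (chr17:24718116-24721929, GRCm38), was at 430 and 482 CPM on and at 989 and 1023 CPM off, a log2 fold change of −1.14 (SE 0.20, adjusted p = 0.000757, edgeR). Rpl13, of the large subunit (chr8:123102350-123105244), was at 1500 and 1559 CPM on and at 2829 and 2670 CPM off, a log2 fold change of −0.85 (SE 0.08, adjusted p = 5.01e-06). For both genes every on library lay below every off library by more than the gap within either pair. Rps2 was also lower on than off in SI p53, where the BRAF allele was absent. It was at 560 and 548 CPM on and at 1105 and 1314 CPM off there, not past the threshold.
Rps19, a small subunit protein whose mutation causes Diamond-Blackfan anaemia, was at 1405 and 1184 CPM on and at 2309 and 2033 CPM off (log2 fold change −0.75, adjusted p = 0.000113). Rps15a changed by −0.76, Rpl27a by −0.73 and Rpl22 by −0.72 on the log2 scale. Without the library with Xist counts the log2 fold change was −1.04 for Rps2, −0.80 for Rpl13, −0.86 for Rps19 and −0.93 for Rps15a, and the order changed: Rps27rt (−0.95), Rpl3 (−0.89), Rps13 (−0.88) and Rps3a1 (−0.86) then lay ahead of Rpl27a (−0.84), Rpl13 and Rpl22 (−0.80). On libraries lay below off libraries for 80 of the 83 members, as they did for 32.9% of all genes tested.

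The changes are given here by the role of the protein. The 3 proteins of the stalk that recruits elongation factors were among the lesser falls, with log2 fold changes of −0.34 for Rplp0, −0.37 for Rplp1 and −0.44 for Rplp2, all past the threshold. Rplp0 was at 3442 and 3113 CPM on and at 4263 and 4020 CPM off. Rpl10, which joins the large subunit late in assembly (−0.29), and Rpsa, the laminin receptor of the small subunit (−0.29), had the smallest changes that passed the test. Of the 10 ribosomal proteins listed as binding Mdm2, 9 fell, with values from −0.39 for Rps14 to −0.63 for Rps7. Rpl5 changed by −0.60 and Rpl11 by −0.59, the pair that binds Mdm2 together with 5S rRNA. Rpl5 was at 671 and 550 CPM on and at 975 and 880 CPM off, and Rpl11 at 562 and 473 CPM on and at 833 and 723 CPM off. Rps27l, the other member of that list, did not pass the test and is described with the copies below. With the library with Xist counts left out, the stalk genes were at −0.39, −0.36 and −0.49, Rpl10 at −0.38, Rpsa at −0.27, Rpl5 at −0.74 and Rpl11 at −0.70, all called, and 9 of the 10 Mdm2-binding proteins were called lower.

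Measures of how counts are assigned were set beside these values. The 25 core genes with at most 50% of their 50-base stretches shared with other genes were all called lower (median −0.52), as were 50 of the 52 with more (median −0.58). Across the 77 core genes the log2 fold change had a Spearman correlation of −0.17 with the share of common stretches, of −0.03 with transcript length and of 0.22 with mean level, which are descriptions across genes of the same libraries. By pyrimidine run, the median was −0.58 in the 22 core genes with a run of at least 5, with 22 called, and −0.60 in the 35 with a shorter run, with 33 called, and over these 57 genes the Spearman correlation of the log2 fold change with the length of the run was −0.01. The other 20 core genes had no window. The calls in these subsets without the library with Xist counts were the same in number, with medians from −0.68 to −0.65. Members are abundant, so genes at a mean of at least 100 CPM, a floor chosen after the data were seen, were also counted. Of 1738 such genes, 17.3% were called lower, and of these 1738 the 78 members gave 74 called and the 1660 others 227 (13.7%), with a median log2 fold change of 0.23 in the others. With SI BRAF on replicate 1 left out, 74 of the 78 and 316 of the 1660 (19%) were called lower.

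**Figure D2:**
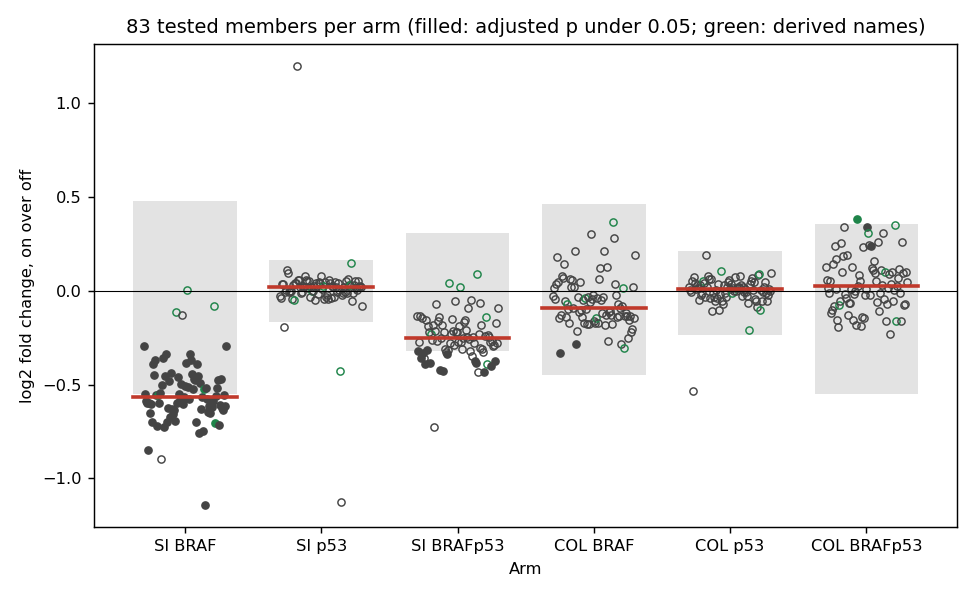
Log2 fold change, on against off (y axis), of the 83 tested ribosomal protein genes in the 6 combinations of tissue and genotype (x axis), with 1 point per gene, filled where the adjusted p is under 0.05, genes with derived names in green, a red line at the members' median and a grey box from the lower to the upper quartile of all genes tested. In SI BRAF 78 genes are called lower and the median is −0.56; in SI BRAFp53 14 are called lower and the median is −0.25; the other medians lie between −0.09 and 0.02.

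The members that did not pass the test in SI BRAF were Rpl7l1, Rps27l, Rpl36al, Rpl41 and Rpl24. The first 3 are copies of core genes with their own promoters and introns. Rpl36al (chr12:69182731-69184083) was at 187 and 157 CPM on and at 192 and 180 CPM off, a log2 fold change of −0.11 (adjusted p = 0.465, edgeR); it shares exonic bases with another annotated gene on its strand. Its parent Rpl36a, on the X chromosome, was at 227 and 206 CPM on and at 378 and 323 CPM off and fell by 0.69 on the log2 scale. Rpl7l1 (chr17:46773907-46782672) was at 165 and 123 CPM on and at 150 and 136 CPM off, with a log2 fold change of 0.01, while Rpl7 was at 1413 and 1129 CPM on and at 1910 and 1704 CPM off and fell by 0.51. Rps27l (chr9:66946086-66949516), described as a target of p53, was at 252 and 217 CPM on and at 272 and 223 CPM off with a log2 fold change of −0.08, while Rps27 was at 534 and 459 CPM on and at 848 and 675 CPM off and fell by 0.62. On and off libraries overlapped for Rpl36al, Rpl7l1 and Rps27l and did not overlap for Rps27, Rpl7 or Rpl36a. Of the other copies, Rpl22l1 fell by 0.56 and Rps27rt, with few reads, by 0.70, and Rps19bp1, which is no copy, fell by 0.52. The 8 core genes from which the derived names come, Rpl3, Rpl7, Rpl10, Rpl22, Rpl36a, Rpl39, Rps19 and Rps27, were all called lower. Without the library with Xist counts the values were −0.22 for Rpl36al, −0.21 for Rpl7l1 and −0.17 for Rps27l, and none passed the test (adjusted p = 0.184, 0.253 and 0.408).

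The ratio of parent to copy within a library does not depend on scaling between libraries. The log2 ratio of Rpl36a to Rpl36al was 0.97 and 0.85 in SI BRAF off libraries and 0.28 and 0.39 on. That of Rps27 to Rps27l was 1.64 and 1.60 off and 1.08 in both on libraries, and that of Rpl7 to Rpl7l1 was 3.67 and 3.64 off and 3.10 and 3.20 on. All 3 ratios were lower in both on libraries than in both off libraries, which shows unequal change within a pair. In SI BRAFp53 the same ratios were 0.68 and 0.63 off and 0.30 and 0.28 on for Rpl36a, 1.60 and 1.52 off and 1.29 and 1.25 on for Rps27, and 3.52 and 3.43 off and 3.23 and 3.14 on for Rpl7. In SI p53 on and off overlapped in all 3 ratios, that of Rps27 to Rps27l being 1.51 and 1.59 off and 1.61 and 1.55 on. The ratio of Rpl22 to Rpl22l1 was 2.30 and 2.38 off and 2.13 and 2.23 on in SI BRAF, a smaller shift. In COL the ratio of Rps27 to Rps27l was 1.76 and 1.69 off and 1.36 and 1.49 on for BRAF, and 1.71 and 1.59 off and 1.30 and 1.19 on for BRAFp53. That of Rpl36a to Rpl36al in COL was 1.45 and 1.54 off and 1.31 and 1.40 on for BRAF, and 1.44 and 1.47 off and 0.93 and 0.85 on for BRAFp53. That of Rpl7 to Rpl7l1 in COL overlapped between off (3.72 and 3.59) and on (3.70 and 3.58) for BRAF, and was 3.54 and 3.73 off and 3.37 and 3.29 on for BRAFp53. In COL p53, where the BRAF allele was absent, 2 of the 3 ratios were also lower in both on libraries: that of Rps27 to Rps27l was 1.51 and 1.47 off and 1.25 and 1.36 on, and that of Rpl36a to Rpl36al was 0.92 and 0.91 off and 0.64 and 0.89 on, while that of Rpl7 to Rpl7l1 overlapped.

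**Figure D3:**
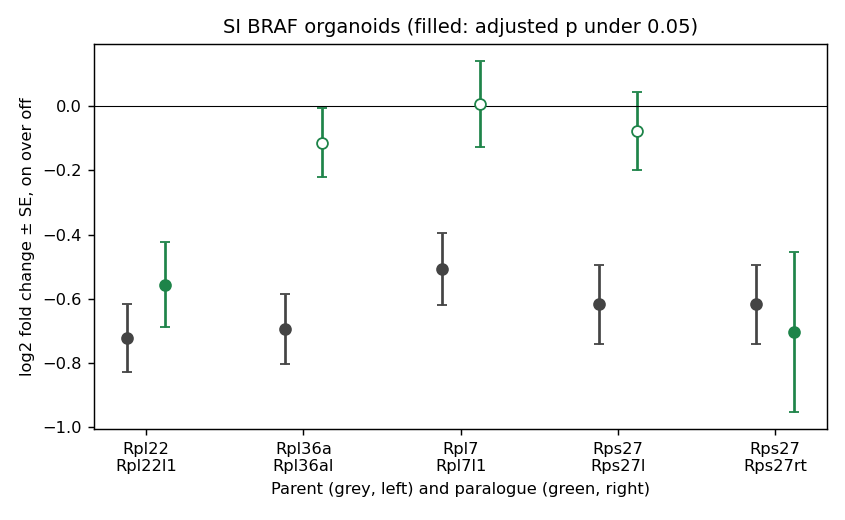
Log2 fold change, on against off, in SI BRAF organoids (y axis) of 5 pairs of a parent gene (grey) and its copy (green), with bars of 1 SE and filled points where the adjusted p is under 0.05. Rpl36al, Rpl7l1 and Rps27l lie near 0, at −0.11, 0.01 and −0.08, and their parents at −0.69, −0.51 and −0.62.

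Rpl41 encodes a very short, highly basic protein of the large subunit and was at 1361 and 1298 CPM on and at 1484 and 1417 CPM off in SI BRAF (log2 fold change −0.13, adjusted p = 0.325). Rpl24 had a log2 fold change of −0.89 at under 1 CPM (adjusted p = 0.343) and overlaps another annotated gene on its strand. Among the ribosomal proteins under other names, Rack1, a scaffold for kinases at the head of the small subunit, fell by 0.50 on the log2 scale, and Fau had 0.04, not past the threshold. Without the library with Xist counts the values were −0.14 for Rpl41, −0.59 for Rack1 and 0.05 for Fau, and of these Rack1 was called.

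When both mutations were switched on in SI organoids, fewer ribosomal protein genes passed the test. In SI BRAFp53, 14 of 83 members were lower and 0 higher, against 4.53% of all genes called lower, with a median log2 fold change of −0.25 and 77 members with both on libraries below both off libraries (28.2% of all genes). Among genes at a mean of at least 100 CPM, 8.86% were called lower, 14 of 78 members and 8.43% of the others. Among called members the largest falls were in Rps27 (−0.43), Rpl32 (−0.43), Rpl3 (−0.42), Rps3a1 (−0.40), Rpl17 (−0.39) and Rps19 (−0.39). Rpl3, at the peptidyl transferase centre, was at 2138 and 1878 CPM on and at 2744 and 2631 CPM off (adjusted p = 0.0362, edgeR). Rpl32 was at 1418 and 1285 CPM on and at 1781 and 1852 CPM off (adjusted p = 0.0282), and Rps27 at 548 and 526 CPM on and at 695 and 753 CPM off (adjusted p = 0.0382). In each of these genes the on libraries lay below the off libraries. Also called, among others, were Rpl22, Rps7, Rps18, Rpl13, Rpl36, Rpl14 and Rpl10a, with log2 fold changes from −0.32 to −0.38. The number of calls was not stable: leaving out 1 library left 0 to 2 calls, 2 without on replicate 1, 1 without on replicate 2, 0 with the first off library omitted and 1 with the second omitted.

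The copies did not pass the test in SI BRAFp53: the log2 fold change was 0.04 for Rpl36al, 0.02 for Rpl7l1, −0.14 for Rps27l, −0.23 for Rpl22l1 and −0.39 for Rps27rt. Rps19bp1 was at 0.09. The stalk genes had values of −0.25 for Rplp0, −0.16 for Rplp1 and −0.15 for Rplp2, and among the Mdm2-binding proteins Rps27 and Rps7 were called. Rps2 was at 549 and 1007 CPM in the on libraries and at 1061 and 1037 CPM off, a difference that 1 library carried (log2 fold change −0.43, adjusted p = 0.198).

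The difference between the SI BRAFp53 and the SI BRAF response was tested directly. It was above 0 for 82 of 83 members, with a median of 0.31 on the log2 scale. For the core genes this means a smaller fall with both mutations. Rpl7l1 fell in neither arm, and Rpl36al and Rps19bp1 lay above 0 with both mutations. The share of all genes above 0 is not given, so the shared sign is only a description. Past the threshold were 3 members, Rpl13 (0.49, adjusted p = 0.017), Rpl12 (0.47) and Rpl13a (0.46), against 1.93% of all genes called higher. Rpl13a was at 966 and 874 CPM on and at 1472 and 1314 CPM off in BRAF, and at 1012 and 1003 CPM on and at 1106 and 1120 CPM off in BRAFp53. Rpl12 was at 584 and 514 CPM on and at 865 and 799 CPM off in BRAF, and at 635 and 622 CPM on and at 670 and 709 CPM off in BRAFp53. Without the library with Xist counts 13 members were called, and without any other single library 0 or 1. The off levels of these genes were also higher in the BRAF culture than in the BRAFp53 culture, and the donors differed.

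Switching on p53 R172H alone in SI organoids moved no member past the threshold, as for 0% of all genes. The median log2 fold change of the 83 members was 0.02, and 3 had an unadjusted p under 0.05, namely Rps2, Rps19bp1 and Rpl13. Rps2 was at 560 and 548 CPM on and at 1105 and 1314 CPM off, with a log2 fold change of −1.13 (SE 0.20, adjusted p = 0.194, edgeR). On and off libraries of Rps2 did not overlap, and DESeq2 called it in this arm, while limma-voom called 0 members. Rps19bp1 had a log2 fold change of −0.43 and Rpl13 of −0.19.

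The replicates of COL p53 on differed from each other. The median level of core genes was 562 CPM in one on library and 780 CPM in the other. Rpl13 went the opposite way, at 1569 and 612 CPM. No member was called in COL p53 on against off, with 0.142% of all genes called, 0 members at an unadjusted p under 0.05, 0 called by DESeq2 or limma-voom, and a median log2 fold change of 0.01. That median was 0.19 without on replicate 1 and −0.22 without on replicate 2.

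In COL organoids few members passed the test when the BRAF mutation was switched on. In COL BRAF, 2 of 83 were lower and 0 higher, against 9.61% of all genes called lower, and the median log2 fold change was −0.09. That median was −0.154 without on replicate 2 and −0.036 without on replicate 1. Both on libraries lay below both off libraries for 40 of 83 members, as for 30.7% of all genes. Rpl15, a large subunit protein, was at 721 and 712 CPM on and at 907 and 899 CPM off (log2 fold change −0.33, adjusted p = 0.0285, edgeR). Rpl3 was at 2894 and 3039 CPM on and at 3654 and 3550 CPM off (−0.28, adjusted p = 0.0318). On and off libraries did not overlap for either gene, but with any 1 of the 4 libraries left out no member was called. Members above 0 included Rpl41 at 0.30, Rps12 at 0.22 and Rpsa at 0.19, none past the threshold.

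In COL BRAFp53, 3 members were higher and 0 lower, against 9.95% of all genes called higher, with a median log2 fold change of 0.02. By total counts, without TMM factors, the members' summed share was instead lower, at 8.2% and 8.69% on and 9.06% and 9.08% off. The TMM factors were 0.94 and 1.001 on and 1.09 and 1.065 off, so the direction of small changes here depends on the scaling. Both on libraries lay above both off libraries for 37 members (27.6% of all genes) and below for 20 (29.4%). Rpl36al, the copy of Rpl36a, was at 171 and 177 CPM on and at 133 and 135 CPM off (0.38, adjusted p = 0.0474). Rpl7a, a large subunit protein, was at 1061 and 1123 CPM on and at 880 and 843 CPM off (0.34, adjusted p = 0.0140). The stalk protein Rplp0 was at 5242 and 5311 CPM on and at 4463 and 4465 CPM off (0.24, adjusted p = 0.0275). On lay above off in both libraries of all 3 genes. Leaving out 1 library left 1 call with the first on library omitted, 0 with the second, 2 with the first off library omitted and 0 with the second. The copies Rps27l (0.35, adjusted p = 0.116) and Rpl7l1 (0.31, adjusted p = 0.0685) did not pass. The COL BRAFp53 and COL BRAF responses differed for 0 of 83 members by edgeR, where 0.907% of all genes were called, with 9 members at an unadjusted p under 0.05, 2 called by DESeq2 and 1 by limma-voom (Rpl7a).

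The tissues were compared by the difference between their on against off responses, in 1 fit of all 24 libraries. The BRAF response of SI lay below that of COL for 82 of 83 members, with a median difference of −0.45. The share of all genes below 0 is not given, so the shared sign is only a description. The difference passed the test for 16, all lower in SI, against 3.31% of all genes called lower. Among these 16 the largest differences were in Rps2 (−1.37), Rps12 (−0.65), Rpl13a (−0.61), Rpl12 (−0.60), Rpl27a (−0.59) and Rpl36 (−0.54). Rps2 varied between COL replicates, at 839 and 1237 CPM on and 1118 and 592 CPM off, so that on and off overlapped there, against 430 and 482 CPM on and 989 and 1023 CPM off in SI. Its difference had an adjusted p of 0.0234 (edgeR) and did not pass the test without COL off replicate 2 (−0.98, adjusted p = 0.109), COL on replicate 2 (−1.08, adjusted p = 0.13), SI on replicate 1 (−1.28, adjusted p = 0.0741) or SI off replicate 2 (−1.36, adjusted p = 0.0655). Rps12, a small subunit protein, was at 730 and 720 CPM on and at 1052 and 963 CPM off in SI, and at 1124 and 1212 CPM on and at 996 and 1016 CPM off in COL. Without the SI library with Xist counts 25 were called, while leaving out any other single library left 3 to 12. The BRAFp53 responses of the tissues differed for 4 members, among them Rps18 (−0.64), Rpl8 (−0.48) and Rplp0 (−0.45), against 1.39% of all genes called lower, with a median of −0.26 over the members. Rps18 was at 1535 and 1417 CPM on and at 1878 and 1943 CPM off in SI, and at 1827 and 1846 CPM on and at 1527 and 1439 CPM off in COL. Leaving out 1 library left 0 to 6 calls: 6 without COL off replicate 1, 3 without SI on replicate 1, 1 without SI off replicate 2 and 0 without any of the other 5.

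Before induction few members passed the test between the tissues. Counts of a culture's 2 off libraries were added before this test, so that n was 3 cultures per tissue, and CPM were scaled by TMM factors fitted over the 6 cultures of both tissues, without pairing the tissues of a donor. SI exceeded COL for 5 of 83 members and 0 were lower, against 12.6% of all genes called higher, with a median difference of 0.24. That median was 0.158 without the COL p53 culture and 0.408 without the COL BRAF culture. Of the 5, 3 are copies: Rpl36al at 215 ± 5.07 CPM in SI and 137 ± 14.5 CPM in COL (log2 difference 0.65, adjusted p = 0.0104), Rpl22l1 at 75.2 ± 3.89 and 54.9 ± 5.92 CPM (0.45, adjusted p = 0.0335), and Rps27rt at 6.33 ± 0.554 and 3.12 ± 0.716 CPM (1.02, adjusted p = 0.0238) (SD, n = 3 cultures). Rpl7a was at 1332 ± 28.7 and 908 ± 77.4 CPM (0.55, adjusted p = 0.0287) and Rpl23a at 47.2 ± 1.91 and 30.3 ± 4.08 CPM (0.64, adjusted p = 0.0145). All SI cultures lay above all COL cultures for 36 of 83 members, as they did for 23% of all genes. Rps2 varied among COL cultures, at 255 to 825 CPM, and was at 1139 to 1379 CPM in SI (0.99, adjusted p = 0.113). With genotype as a block, which pairs the tissues by the donor that the methods name, 2 were called, Rpl36al and Rpl23a. That pairing was not checked, and Xist was unlike between the paired cultures of p53 and of BRAFp53. The number of calls depended on single cultures: 17 without COL BRAF, 8 without COL p53, 3 without COL BRAFp53, 2 without SI BRAF and 0 without either other SI culture.

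Levels per length, in CPM of the total counts (without TMM factors) per kilobase of the annotated transcript in off libraries over both tissues, allow members to be ordered. The highest were Rpl32 (3950), Rps19 (3430), Rps14 (3390), Rpl41 (3340) and Rps18 (3270). These neighbours did not differ beyond the spread between cultures, which for Rpl32 was 1020 in COL and 380 in SI around means of 4130 and 3780. These levels do not order the tissues: the mean was higher in SI for 41 of the 86 genes by total counts and for 78 with the TMM factors of the 6 cultures, a scaling added after the data were seen, with which Rpl32 was at 3780 ± 846 in COL and 4100 ± 269 in SI (SD, n = 3 cultures). The 5 highest and 5 lowest genes were the same with both scalings. The lowest were Rpl10l at 0, Rpl39l at 0.0211, Rpl3l at 0.033, Rpl24 at 0.77 and Rps27rt at 12.4 CPM per kilobase. Rpl3l is known as the form of skeletal muscle and heart, and Rpl39l and Rpl10l as forms of the male germ line. The upper quartile of core genes was 2.06 times the lower quartile, and the order in SI and COL had a Spearman correlation of 0.98 over the 86 genes. The order depends on the length chosen: with the union of exons Rps19 ranked 41 instead of 2.

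**Figure D4:**
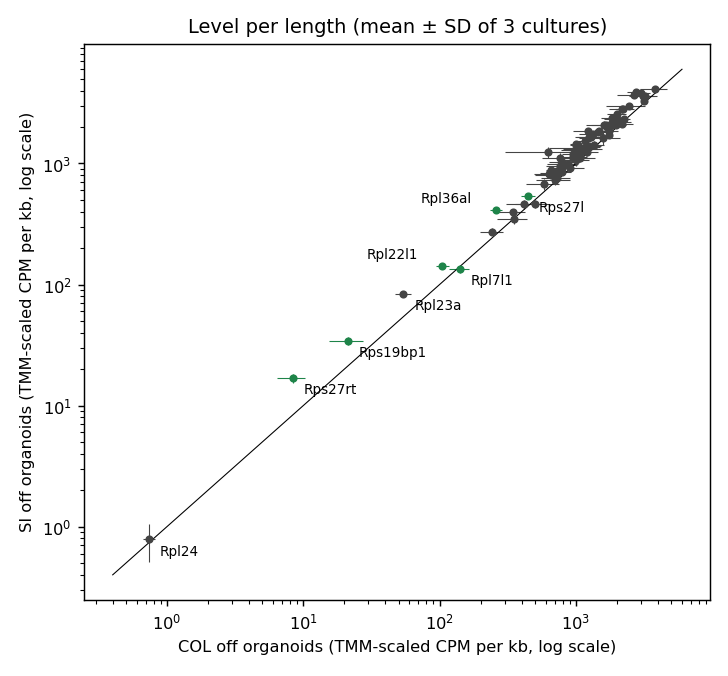
Level of ribosomal protein genes before induction in CPM per kilobase of transcript, scaled by TMM factors fitted over the cultures of both tissues (log axes), in COL (x axis) and SI (y axis), with 1 point per gene at the mean of 3 cultures, bars of 1 SD, genes with derived names in green and a line of equal levels. Rpl10l, Rpl39l and Rpl3l, at or near 0, are not drawn; with this scaling 78 of the 86 genes have a higher mean in SI, against 41 by total counts, and Rpl24 lies lowest at 0.764 over both tissues.

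Other genes of ribosome production and translation were counted by list, to be read against the 14.2% of all genes called lower and the 17.5% called higher in SI BRAF. In SI BRAF, 12 of 18 other mRNAs with a TOP tract or for elongation factors were lower and 1 higher (median −0.46), with Pabpc1, the poly(A)-binding protein, at −0.69, Hnrnpa1 at −0.64, Eef1b2 at −0.62 and Eif3e at −0.60. Of 16 genes of RNA polymerase I and rDNA transcription, 5 were lower (median −0.26), among them Taf1d (−0.81) and Polr1a (−0.60), the largest subunit of the polymerase. Small subunit assembly factors were lower in 6 of 33 cases (median −0.32), and 5 of 14 factors of small nucleolar particles were lower (median −0.37), Dkc1 by 0.68. Of 37 large subunit assembly factors, 8 were lower and 3 higher (median −0.27). The higher ones were Eif6 (0.83), which keeps the subunits from joining, Sbds (0.69) and Efl1 (0.62), a share below that of all genes called higher. The nucleolar protein Npm1 fell by 0.66. Mitochondrial ribosomal proteins were lower in 18 and higher in 2 of 77 cases (median −0.21), and 2 of 26 other initiation factors were lower and 2 higher. Among 22 Myc and mTORC1 regulators, 6 were higher and 6 lower, with Mycn (−2.86), Mycl (−1.51) and Myc (−0.79) lower, and the Myc antagonist Mxd1 (3.42) and Mlx (1.13) higher. These counts depended on the library with Xist counts: without it 19 of 33 small subunit and 18 of 37 large subunit assembly factors were lower, 8 of 14 factors of small nucleolar particles, 7 of 16 genes of RNA polymerase I, 15 of 18 TOP and elongation mRNAs and 31 of 77 mitochondrial ribosomal proteins, while 14.3% of all genes were called lower and 15.4% higher. Other initiation factors were then lower in 4 of 26 cases and higher in 2, and of the Myc and mTORC1 regulators 4 were lower and 6 higher (median −0.04). Mycn was then at −4.91, Mycl at −1.91, Myc at −1.21, Mxd1 at 3.58, Npm1 at −0.94 and Hnrnpa1 at −1.07. The median was then −0.55 for small subunit and −0.48 for large subunit assembly factors, and −0.56 for factors of small nucleolar particles. It was −0.44 for genes of RNA polymerase I, −0.54 for TOP and elongation mRNAs and −0.32 for mitochondrial ribosomal proteins.

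In COL BRAF, where 2 members were called, 6 of the 18 TOP and elongation mRNAs were lower (median −0.20), 0 of 33 small subunit assembly factors were called (edgeR, 3 at an unadjusted p under 0.05) and 14 of 77 mitochondrial ribosomal proteins were lower with 1 higher (median −0.22), where 9.61% of all genes were called lower and 10.3% higher. In COL BRAFp53, 19 of 77 mitochondrial ribosomal proteins were higher (median 0.21), as were 11 of 26 other initiation factors (median 0.25) and 6 of 37 large subunit assembly factors, against 9.95% of all genes called higher. In SI BRAFp53, 4 of 18 TOP and elongation mRNAs were lower (median −0.24) and 2 of 77 mitochondrial ribosomal proteins (2.6%), against 4.53% of all genes called lower. Between tissues before induction, 54 of 77 mitochondrial ribosomal proteins were higher in SI (median 0.59) and 13 of 33 small subunit assembly factors lower, against 12.6% of all genes called higher and 17% lower.

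**Figure D5:**
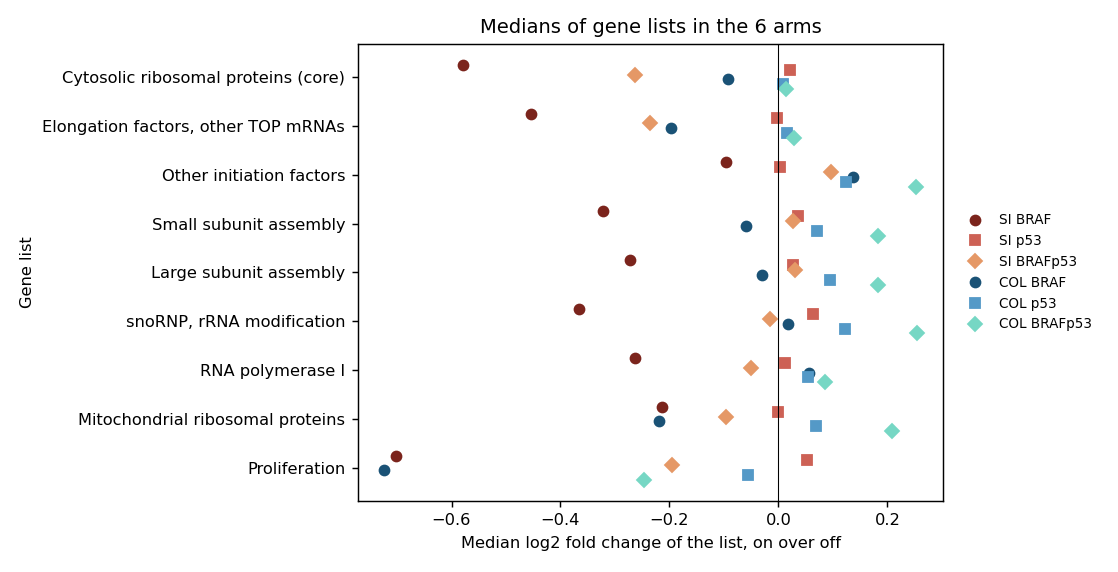
Median log2 fold change, on against off (x axis), of 9 gene lists (y axis), with 1 symbol for each of the 6 combinations of tissue and genotype. The core ribosomal proteins have a median of −0.58 in SI BRAF and −0.26 in SI BRAFp53, and the proliferation list has −0.70 in SI BRAF and −0.72 in COL BRAF.

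Markers of dividing and of mature cells were counted in the same way. Of 30 proliferation genes, 21 were lower in SI BRAF (median −0.70), Mcm6 by 1.28 and Hells by 1.08, and 24 in COL BRAF (median −0.72), where the members' median was −0.09. Without the SI BRAF library with Xist counts 29 of the 30 were lower (median −1.13), against a members' median of −0.66. In SI BRAFp53 0 of the 30 were called (edgeR, 4 at an unadjusted p under 0.05, median −0.20), and in COL BRAFp53 4 were lower, against 7.76% of all genes. The summed level of the 30 genes was 2231 and 1322 CPM in the SI BRAF on libraries and 2772 and 2942 CPM in the off libraries. Of 6 epithelial markers, 5 were higher in SI BRAF, with Krt20 at 2.65 and Vil1 at 1.72, and their sum was 11537 and 12818 CPM on against 5922 and 5816 CPM off. In COL BRAF, 5 were higher too, with sums of 19054 and 17866 CPM on against 7914 and 7592 CPM off. The same held for 5 of 6 in COL BRAFp53, with sums of 21280 and 16644 CPM on against 8451 and 7960 CPM off and a members' median of 0.02, and for 4 of 6 in SI BRAFp53, with 7305 and 7325 CPM on against 4971 and 4698 CPM off, while 6.98% of all genes were called higher there. Of 6 small intestine markers in SI BRAF, the enterocyte genes Apoa4 (3.06) and Fabp2 (2.31) rose and the Paneth cell genes Lyz1 (−1.58) and Defa24 (−1.26) fell. Among stromal and immune markers Itgam rose from 5.14 and 6.77 CPM to 14.6 and 20.8 CPM, while Col3a1 and Dcn were at 0 in all 4 SI BRAF libraries. Leaving out that SI BRAF library, Krt20 was at 2.68, Vil1 at 1.82, Apoa4 at 3.25, Fabp2 at 2.36, Lyz1 at −1.85 and Defa24 at −1.26, all called. The part of these changes in the level of ribosomal proteins was not tested.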

How the data were processed

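RNA-seq of total RNA was analysed for 24 mouse organoid libraries, 12 per tissue. The authors trimmed paired-end reads with Trimmomatic 0.36 and aligned them with STAR 2.5.2b. The submitters' processing notes list mm9 and mm10, and the annotation release and the strand setting are not given in the sources used here. The deposited values are raw counts per Ensembl gene, 1 table per tissue. Identifiers were matched to GENCODE M21 for symbols (45143 matched, 563 did not). Samples were grouped by tissue, genotype and state from the labels.

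The main test was edgeR 4.0.16 in R 4.3.3: TMM scaling, filterByExpr, the quasi-likelihood F test, two-sided, with Benjamini-Hochberg adjustment over all genes tested and a threshold of 0.05. Each tissue's 12 libraries were fitted together, responses were compared between tissues in all 24, and off libraries were summed per culture for the baseline. SE is the log2 fold change divided by the square root of F. Alternatives were RLE scaling, TMM without the members, DESeq2 1.42.0, voom in limma 3.58.1, no filter or a floor of 10 counts per library, a replicate block and leaving out single libraries or cultures. The study itself used limma. Scripts were tested on simulated data.

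The genes and lists were chosen with earlier results of these data known. Named were up to 6 called members per direction with the largest change and no overlap between groups, the copies and their parents, the stalk, the Mdm2-binding proteins, the 5 highest and 5 lowest levels per length, and up to 4 called genes per other list. Other genes named were chosen after their values were seen. Values of some single genes are not reported here. Members' lengths, overlaps and shared 50-base stretches came from GENCODE M21, and promoter windows from RefSeq GRCm38.p6. Same-group libraries differed by more than sampling noise (chi-square per degree of freedom 20.5 to 92.4), and 3 counts correspond to 0.0384 to 0.0676 CPM of total counts, covering counting error only.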

Additional observations from a re-analysis of the deposited data

Results flagged for a closer look

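The tests of a difference between responses picked out members in 3 comparisons. The BRAF response in SI was below that in COL for 16 members, among them by −1.37 for Rps2, −0.65 for Rps12, −0.61 for Rpl13a, −0.60 for Rpl12, −0.59 for Rpl27a, −0.54 for Rpl36, −0.53 for Rps19 and for Rpl10a, −0.51 for Rpl29, −0.50 for Rpl6, −0.47 for Rpl19, −0.45 for Rpsa, −0.44 for Rpl8, −0.43 for Rpl18 and −0.36 for Rplp0 on the log2 scale. The value of Rps2 did not pass the test without any 1 of 4 libraries (−1.36 to −0.98). The BRAFp53 response in SI was below that in COL for 4 members, among them by −0.64 for Rps18, −0.48 for Rpl8 and −0.45 for Rplp0. Within SI, the BRAFp53 response was above the BRAF response for 3 members, by 0.49 for Rpl13, 0.47 for Rpl12 and 0.46 for Rpl13a. In the tissue comparisons dose and day of sampling differed as well and cannot be told apart from tissue. Xist was also unlike between the SI and COL cultures of BRAFp53.

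Outside the members, Xist was at 13.6 CPM in SI BRAF on replicate 1, above the 0.18 to 0.478 CPM of the other libraries of that culture.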

How the results depend on the processing

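The fall of ribosomal protein genes in SI BRAF held in its direction under each alternative run, with 75 to 79 genes called and 66 to 78 when single libraries were left out (median −0.66 to −0.47). The smaller counts varied. With no filter on low counts, 1 gene was called in COL p53 (Rpl13), 5 in COL BRAFp53, 1 in SI p53 (Rps2), 1 for the COL difference between BRAFp53 and BRAF, 26 for the BRAF and 7 for the BRAFp53 difference between tissues. With at least 10 counts in every library, 1 was called in COL BRAF, 6 for the SI difference between BRAFp53 and BRAF and 39 for the BRAF difference between tissues. DESeq2 called 7 in COL BRAFp53, 1 in SI p53 (Rps2), 2 and 8 for the COL and SI differences between genotypes, 36 and 11 for the BRAF and BRAFp53 differences between tissues and 15 before induction. Voom in limma called 6 in COL BRAFp53, 1 and 5 for the COL and SI differences between genotypes and 9 before induction. RLE scaling called 1 for the SI difference between genotypes and 8 before induction. Before induction, 2 were called with genotype as a block and 2 without the copies. The mean level per length was higher in SI for 41 of 86 genes by total counts and 78 with TMM factors over both tissues. The cause of these shifts was not tested. The share of all genes called under each setting is not given. These numbers, and those with single libraries or cultures left out, therefore describe only how stable the calls were.

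Where a group keeps 1 library, it is assumed to vary like the other groups. Leaving out single libraries gave 0 to 0 calls in COL BRAF, COL p53, SI p53 and the COL difference between genotypes, 0 to 2 in COL BRAFp53 and in SI BRAFp53, 0 to 13 for the SI difference between genotypes, 3 to 25 and 0 to 6 for the BRAF and BRAFp53 differences between tissues, and 0 to 17 before induction when a culture was left out. In fits chosen after the data were seen, 27 of 27 named genes outside the members kept their direction and side of the threshold in SI BRAF without on replicate 1, and the BRAF difference of Rps2 between tissues ranged from −1.92 to −0.98 and failed the test without any 1 of 4 libraries. Replicate numbers did not pair libraries: deviations of same-numbered on and off libraries correlated at −0.039 to 0.057. A replicate block gave 0 calls in COL BRAF, 1 in COL BRAFp53, 1 for the SI difference between genotypes, 2 for the BRAFp53 difference between tissues and, with the libraries of a culture not summed and so counted as separate samples, 31 before induction; SI BRAF kept 78 calls, all of them shared. With 2 libraries per group, differences within the spread between wells were not detectable, and the floor set for detection, 3 counts, is 0.0384 to 0.0676 CPM of total counts.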

Other observations

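Rps4l, annotated as a transcribed processed pseudogene of Rps4x and so outside the 86 genes, differed between cultures. It was at 204 and 192 CPM on and at 193 and 198 CPM off in SI BRAF, at 23.1 and 34.2 CPM on and 28.2 and 30.2 CPM off in SI p53, and at 0.273 and 0.152 CPM on and 2.28 and 1.32 CPM off in SI BRAFp53. In COL it was at 4.23 to 8.18 CPM in BRAF, 29.2 to 57.5 CPM in p53 and 4.07 to 10.5 CPM in BRAFp53. Its log2 fold change in SI BRAFp53 was −3.10 (adjusted p = 0.000134, edgeR), at levels under 3 CPM. Mitochondrially encoded genes took 2.58% to 8.84% of counts per library and ribosomal protein pseudogenes marked -ps took 0.0205% to 0.0461%.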
